A study of Mus musculus with 2 samples.

Results

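The genes described here are Lin28a, Lin28b, Trim71, Hmga1, Hmga2, Igf2bp1, Igf2bp2 and Igf2bp3, a set of 8 genes taken by symbol from the 32286 features counted in each of 2 single-cell RNA sequencing (scRNA-seq) libraries. All 8 were found in both libraries, and all 8 had a mean of at least 5 CPM in each comparison below (CPM, the UMIs of a gene scaled to a class total of 1000000). One library held mouse embryonic stem cells (ESCs) grown in serum/LIF medium (0 h). The other held epiblast-like cells after 48 h of differentiation with activin A and bFGF on Matrigel (48h-EpiLCs). Each was a mixture, in equal numbers, of wild-type (WT) cells with the ROSA mT/mG reporter, which transcribe tdTomato, and of Cnot8 knockout (KO) cells, all of the ICR strain. The CNOT8 protein is one of the deadenylases with which the Ccr4-Not complex trims poly(A) tails. The deposited genotype label of both libraries reads wild type, while their titles name WT and KO. Cnot8 KO ESCs were derived from blastocysts of heterozygous parents and expanded from picked colonies, and how many KO lines entered is not given in the sources used here. The feeder cells of the paper were inactivated mouse embryonic fibroblasts, while its general ESC culture, in a medium other than serum/LIF, was feeder-free. The paper does not say whether the serum/LIF cells were grown on feeders.

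The genotype of each cell was read from its own counts of unique molecular identifiers (UMIs). Cells entered with at least 1000 detected genes and a mitochondrial share of UMIs no higher than 10%, which were 11054 of 13184 barcodes in the ESC library and 9400 of 12427 in the 48h-EpiLC library. WT cells were those with at least 1 tdTomato UMI and 0 UMIs of the Y-linked genes Ddx3y, Eif2s3y, Kdm5d and Uty. KO cells were those with no tdTomato UMI and at least 2 Y-linked UMIs. This gave 435 WT ESCs, 2978 KO ESCs, 368 WT 48h-EpiLCs and 2977 KO 48h-EpiLCs, with 6154790, 44110356, 6219834 and 59291903 UMIs in all. The other kept cells entered neither line: 5321 of the ESC library and 4247 of the 48h-EpiLC library had neither tdTomato nor Y-linked UMIs, 2238 and 1724 had 1 Y-linked UMI and no tdTomato, and 82 and 84 had both. The lines thus differed in the tdTomato reporter and in the presence of Y-linked transcripts as well as in Cnot8, and may also differ in derivation and clone. These cannot be told apart. Cnot8 itself was at 43.1 CPM in WT ESCs, 72.1 in KO ESCs, 49.7 in WT 48h-EpiLCs and 62.6 in KO 48h-EpiLCs. The counts are of 3′ ends and the knockout was made in exon 2 of the gene, so they do not check the KO label. There was 1 library per stage, so stage and library cannot be told apart, replicates cannot check any difference and no p-value is given. The paper describes EpiLC formation from ESCs kept in 2i/LIF medium (LIF and kinase inhibitors), while the ESC library held serum/LIF cells. Starting medium and stage therefore cannot be told apart either. The intervals are exact 95% intervals for counting error only.

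Some cells of these classes were of other kinds. In the ESC library, clusters met marker lists of feeder fibroblasts (270 cells, led by Inhba, Tm4sf1 and Prrx1 or by Acta2 and Tagln), primitive endoderm (242 cells, led by Foxq1, Gata6 and Pdgfra) and 2-cell-like cells (68 cells). A further cluster of 131 cells led by Slpi, Lyz2 and Mmp12 had 5 of the 10 feeder markers and stayed unnamed. KO ESCs included 209 cells of these clusters (7.02%), 55 of them feeder-like and 43 unnamed. WT ESCs included 14 (3.22%), none of them feeder-like, as no feeder-like cell had a tdTomato UMI. The summed level of the 10 feeder markers was 43.1 CPM in KO ESCs and 11.9 in WT ESCs, and 12.1 and 7.92 once these cells were left out. Cells with the top 10% of doublet scores were 16.4% of KO ESCs against 6.67% of WT ESCs, and 13.9% of KO against 5.98% of WT 48h-EpiLCs. Of the barcodes, 41 occurred in both libraries. The labelled state held: the 7 pluripotency markers were all above 20 CPM in both ESC classes, and the 4 formative markers (Fgf5, Pou3f1, Otx2 and Dnmt3b) summed to 310 CPM in WT ESCs and 1110 in WT 48h-EpiLCs, and to 351 and 954 in KO cells.

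The 8 genes belong to a circuit known from early embryos and stem cells. LIN28A and LIN28B are RNA-binding proteins that hold back the maturation of let-7 microRNAs by binding their precursors. LIN28A can also recruit the uridylating enzymes TUT4 and TUT7, after which DIS3L2 degrades the precursor. Mature let-7 in turn represses mRNAs with sites for its seed, among them those of Lin28a and Lin28b, of Trim71 (an RNA-binding ubiquitin ligase of the TRIM-NHL family), of the chromatin architectural proteins HMGA1 and HMGA2, and of the IGF2BP proteins, which bind mRNAs and affect their stability and translation. The libraries hold no mature microRNAs, so let-7 was not measured.

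The let-7 sequences are shown because the seed is what the 8 mRNAs have in common. All 9 mature mouse 5p members in the RefSeq table (let-7a to let-7g, let-7i and miR-98, 11 loci on GRCm38.p6) had the same bases 2 to 8, here in capitals.
mmu-let-7a-5p: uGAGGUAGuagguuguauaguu
mmu-let-7d-5p: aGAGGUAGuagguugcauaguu
mmu-let-7g-5p: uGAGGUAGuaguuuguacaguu
mmu-miR-98-5p: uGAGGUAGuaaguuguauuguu
The match to this seed, CTACCTC, was searched on the sense strand of the longest annotated 3′ UTR of each protein-coding gene (GENCODE M21, GRCm38). It was present in 907 of 9177 expressed genes (9.88%) and in all 8 of these genes, which are known let-7 targets. Igf2bp1, Trim71, Hmga2 and Lin28b had 4 matches each, Lin28a had 2, and Hmga1, Igf2bp2 and Igf2bp3 had 1 each. Only 18 of the 9177 genes (0.196%) had 3 or more. The 8 3′ UTRs held 0.773 matches per kb against 0.0708 per kb over all 9177. In Trim71 all 4 matches were followed by A (opposite base 1 of the microRNA), as were 3 of 4 in Igf2bp1 and both in Lin28a. In Lin28b and in Hmga2 this was so for 1 of 4.

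For each gene the match nearest the stop codon is shown, taking one followed by A where there is one, with 14 bases before it and the match in capitals.
Lin28a: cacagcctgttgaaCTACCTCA
Lin28b: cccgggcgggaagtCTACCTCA
Trim71: acattgcctaagtcCTACCTCA
Hmga1: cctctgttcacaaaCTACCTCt
Hmga2: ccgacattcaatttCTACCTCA
Igf2bp1: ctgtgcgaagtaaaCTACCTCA
Igf2bp2: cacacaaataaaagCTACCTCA
Igf2bp3: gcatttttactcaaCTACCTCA
These windows lie in 3′ UTR exons at chr4:134005189-134005210 (minus strand) for Lin28a, chr10:45381022-45381043 (minus) for Lin28b, chr9:114512472-114512493 (minus) for Trim71, chr17:27563278-27563299 (plus) for Hmga1, chr10:120364224-120364245 (minus) for Hmga2, chr11:95961778-95961799 (minus) for Igf2bp1, chr16:22059473-22059494 (minus) for Igf2bp2 and chr6:49086787-49086808 (minus) for Igf2bp3. In Lin28b the first match began 36 bases into a 3′ UTR of 4445 bases, and in Hmga2 58 bases into one of 3014. A match is a run of letters and not a measured site.

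KO cells had less Lin28a, Lin28b, Trim71, Igf2bp2 and Igf2bp3 RNA than WT cells at both stages. The difference passed 1.5-fold for Lin28b (1.61-fold in ESCs and 1.55-fold in 48h-EpiLCs) and for Igf2bp2 (1.86-fold and 1.65-fold). Hmga1 was higher in KO ESCs, Igf2bp1 was lower in KO ESCs and higher in KO 48h-EpiLCs, and Hmga2 was lower in KO 48h-EpiLCs. Hmga2 was 2.92-fold higher in KO ESCs, but this difference was lost when cells of other types were left out. In 48h-EpiLCs against ESCs, Lin28a, Lin28b and Igf2bp3 were higher and Trim71, Hmga1 and Igf2bp1 lower in both lines. Lin28b had the largest increase with all cells of each class. With Hmga1b, a near-copy, added to Hmga1, the intervals of WT and KO ESCs overlapped, as did those of WT ESCs and WT 48h-EpiLCs.

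**Figure D1:**
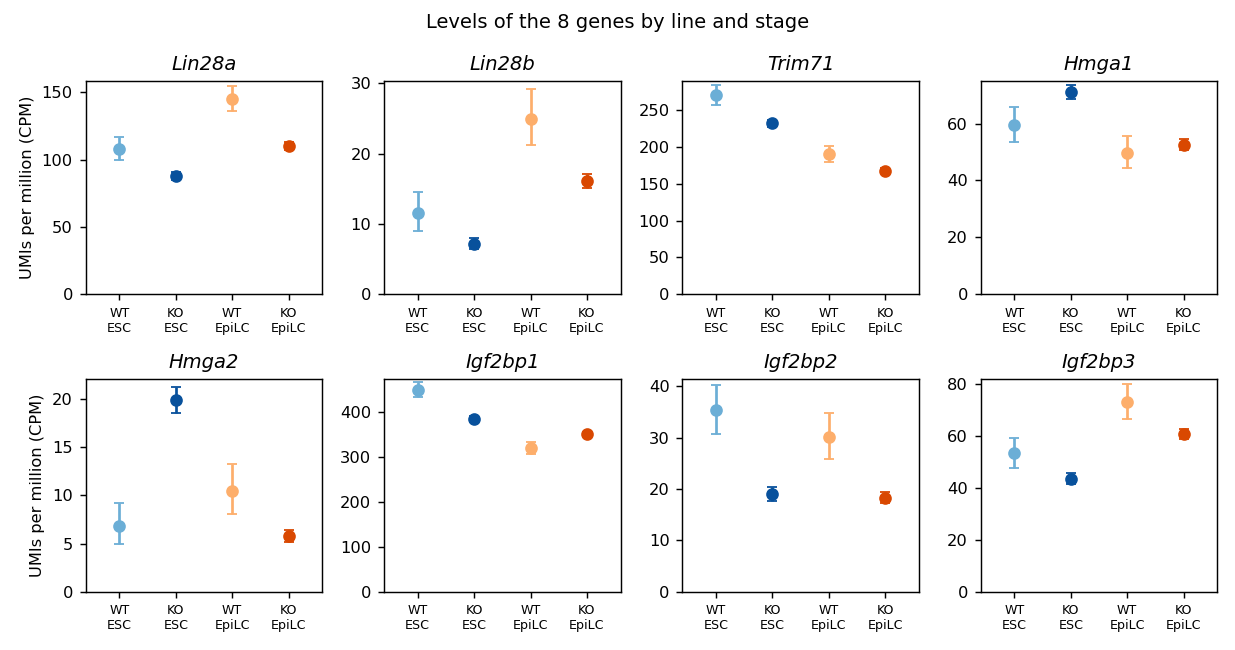
Level of each of the 8 genes (CPM, axis from 0) in WT and KO ESCs and 48h-EpiLCs; points are the level of all UMIs of a class summed and bars are exact 95% Poisson intervals for counting error. Lin28b ranges from 7.16 CPM in KO ESCs to 24.9 CPM in WT 48h-EpiLCs, and Igf2bp2 sits near 19 CPM in both KO classes and above 30 CPM in both WT classes.

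Lin28a (chr4:134003330-134018841, minus strand) was at 108 CPM in WT ESCs (95% interval 100 to 117), 87.8 in KO ESCs (85 to 90.6), 145 in WT 48h-EpiLCs (136 to 155) and 110 in KO 48h-EpiLCs (107 to 113). The highest class was WT 48h-EpiLCs and the lowest KO ESCs, while the intervals of KO 48h-EpiLCs and WT ESCs overlapped. The log2 ratio of KO to WT was -0.30 (-0.42 to -0.18) in ESCs and -0.40 (-0.50 to -0.29) in 48h-EpiLCs. From ESCs to 48h-EpiLCs it was 0.42 (0.27 to 0.57) in WT cells and 0.33 (0.27 to 0.39) in KO cells. The transcript was widespread: 74.3% of WT ESCs, 66.2% of KO ESCs, 86.1% of WT and 80.5% of KO 48h-EpiLCs had at least 1 UMI. In feeder-like cells, which should lack it, 10.7% had a UMI at a median of 7817.5 UMIs per cell, against a median of 13151 UMIs in WT ESCs and 13368 in KO ESCs. With every cell thinned to 5000 UMIs the shares were 42.4%, 32.6%, 51% and 39.6%, against 6.01% of feeder-like cells (1, 23, 1, 9 and 87 shallower cells left out).

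Lin28b (chr10:45376620-45486395, minus strand), the paralogue of Lin28a, was the scarcer transcript. It had 71 UMIs in WT ESCs (11.5 CPM, 9.01 to 14.6), 316 in KO ESCs (7.16 CPM, 6.4 to 8), 155 in WT 48h-EpiLCs (24.9 CPM, 21.2 to 29.2) and 953 in KO 48h-EpiLCs (16.1 CPM, 15.1 to 17.1). No 2 of these intervals overlapped, and the order was WT 48h-EpiLCs, KO 48h-EpiLCs, WT ESCs and KO ESCs. Its ratio of 48h-EpiLCs to ESCs was the largest increase among the 8 genes in both lines with all cells, 2.16-fold in WT cells (log2 1.11, 0.70 to 1.54) and 2.24-fold in KO cells (log2 1.17, 0.98 to 1.35). With doublets left out, Hmga2 in WT cells had a ratio of 2.03-fold (log2 1.02, 0.37 to 1.70) and Lin28b 1.93-fold (0.95, 0.52 to 1.39). The log2 ratio of KO to WT was -0.69 (-1.06 to -0.29) in ESCs and -0.63 (-0.88 to -0.38) in 48h-EpiLCs. On the log2(CPM + 1) scale, used for all counts past 1.5-fold, these ratios were -0.62 and -0.60. Over 11 alternative settings they ranged from -0.76 to -0.38 in ESCs, past 1.5-fold in 7, and from -0.66 to -0.52 in 48h-EpiLCs, past it in 8. After thinning, 5.3% of WT ESCs, 3.89% of KO ESCs, 12.3% of WT and 7.99% of KO 48h-EpiLCs had a UMI, against 1 of 183 feeder-like cells (0.546%), and before thinning 14.9%, 9.87%, 31.8% and 25.9%.

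Trim71 (chr9:114507133-114564369, minus strand) was at 271 CPM in WT ESCs (258 to 284), 233 in KO ESCs (228 to 237), 191 in WT 48h-EpiLCs (180 to 202) and 168 in KO 48h-EpiLCs (165 to 172). Its order was opposite to that of Lin28b for stage and the same for line, and no 2 intervals overlapped. From ESCs to 48h-EpiLCs its log2 ratio was -0.50 (-0.61 to -0.39) in WT cells and -0.47 (-0.51 to -0.43) in KO cells, which is under 1.5-fold in each. KO over WT had a log2 ratio of -0.22 (-0.29 to -0.14) in ESCs and -0.18 (-0.27 to -0.09) in 48h-EpiLCs. With lines taken from clusters and doublets left out, which gave 3867 WT and 4607 KO 48h-EpiLCs, the latter was -0.05 (-0.09 to -0.01). At least 1 Trim71 UMI was found in 90.5% to 94% of the cells of the 4 classes, and in 21.1% of feeder-like cells.

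Hmga1 (chr17:27556497-27563674, plus strand), an architectural protein that binds AT-rich DNA, was at 59.5 CPM in WT ESCs (53.5 to 65.9), 71 in KO ESCs (68.5 to 73.5), 49.8 in WT 48h-EpiLCs (44.4 to 55.7) and 52.5 in KO 48h-EpiLCs (50.7 to 54.4). KO ESCs were above the other 3 classes, whose intervals overlapped with their neighbours. In KO over WT cells the log2 ratio was 0.26 (0.10 to 0.42) in ESCs and 0.08 (-0.09 to 0.25) in 48h-EpiLCs. Between stages it was -0.25 (-0.48 to -0.03) in WT cells and -0.43 (-0.51 to -0.36) in KO cells. With lines taken from clusters and doublets left out, KO over WT was 0.30 (0.23 to 0.37) in ESCs. In 48h-EpiLCs it was 0.24 (0.17 to 0.31) in that setting. The near-copy Hmga1b, an intronless gene on chromosome 11, went the other way: it was at 10.9 CPM in WT ESCs, 5.1 in KO ESCs, 16.6 in WT 48h-EpiLCs and 5.9 in KO 48h-EpiLCs. Reads could be split between the 2 copies, so the Hmga1 values are uncertain. The sum of both was 70.4 CPM in WT ESCs (63.9 to 77.3), 76.1 in KO ESCs (73.5 to 78.7), 66.4 in WT 48h-EpiLCs (60.2 to 73.1) and 58.4 in KO 48h-EpiLCs (56.5 to 60.4), so that the order of WT and KO differed between the stages and the intervals of the lines overlapped at each stage. The intervals of WT ESCs and WT 48h-EpiLCs overlapped too, while those of the KO classes did not.

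Hmga2 (chr10:120361275-120476469, minus strand), its close relative with 4 seed matches, was the gene whose ESC values turned on which cells were counted. It had 42 UMIs in WT ESCs (6.82 CPM, 4.92 to 9.22), 878 in KO ESCs (19.9 CPM, 18.6 to 21.3), 65 in WT 48h-EpiLCs (10.5 CPM, 8.07 to 13.3) and 343 in KO 48h-EpiLCs (5.78 CPM, 5.19 to 6.43). KO ESCs stood above the other 3 classes, with a log2 ratio to WT ESCs of 1.54 (1.10 to 2.03). Of the 878 UMIs, 567 (64.6%) were in the 55 feeder-like cells, 103 (11.7%) in the 43 unnamed cells and 36 (4.1%) in the 90 endoderm-like cells. The feeder-like cells of the ESC library had 599 CPM of Hmga2 (570 to 629), with a UMI in 77% of them. Thinned to 5000 UMIs per cell, the variance of the Hmga2 count was 3.65 times its mean in KO ESCs and 1.41 times in WT ESCs, while for the other 7 genes it was 0.949 to 1.17 times in both.

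Without the cells of other types, Hmga2 was at 4.24 CPM in 2769 KO ESCs and 5.06 CPM in 421 WT ESCs, a log2 ratio of -0.25 (-0.82 to 0.36). With lines taken from clusters and doublets left out, it was at 4.44 CPM in 5399 KO ESCs and 6.03 CPM in 3853 WT ESCs (log2 -0.44, -0.68 to -0.20). In 48h-EpiLCs the ratio of KO to WT was -0.85 (-1.24 to -0.45) with all cells, -0.85 without the other types and -0.83 (-1.02 to -0.65) with lines taken from clusters and doublets left out. WT 48h-EpiLCs exceeded WT ESCs 1.53-fold (log2 0.61, 0.03 to 1.21), and 2.07-fold (1.05, 0.40 to 1.72) without the other types. In KO cells the stage ratio was -1.78 (-1.97 to -1.60) with all cells and 0.45 (0.18 to 0.72) without the other types. Hmga2 UMIs were found in 7.13% of WT ESCs and 9.07% of KO ESCs, and in 15.5% of WT and 10.6% of KO 48h-EpiLCs. With every cell thinned to 5000 UMIs the shares were 3.46% (15 cells), 4.67%, 4.36% (16 cells) and 2.26%. The stage ratio in WT cells on the log2(CPM + 1) scale was then 0.06, against 0.55 with all UMIs.

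**Figure D2:**
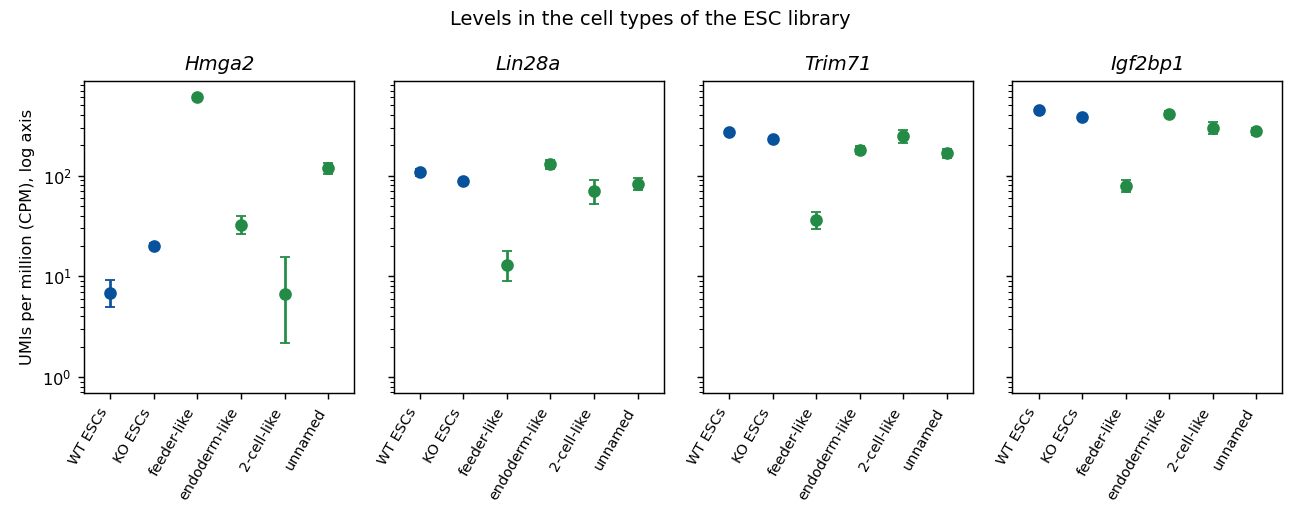
Levels of Hmga2, Lin28a, Trim71 and Igf2bp1 (CPM, log axis) in WT and KO ESCs (blue) and in the feeder-like, endoderm-like, 2-cell-like and unnamed clusters of the same library (green), with exact 95% Poisson intervals. Hmga2 reaches 599 CPM in feeder-like cells, where Lin28a is lowest, at 12.8 CPM.

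Igf2bp1 (chr11:95957163-96005940, minus strand) gave the most UMIs of the 8 genes in every class: 450 CPM in WT ESCs (434 to 467), 385 in KO ESCs (379 to 391), 321 in WT 48h-EpiLCs (307 to 335) and 352 in KO 48h-EpiLCs (347 to 357). No 2 intervals overlapped. Its log2 ratio of KO to WT had opposite signs, -0.23 (-0.28 to -0.17) in ESCs and 0.14 (0.07 to 0.20) in 48h-EpiLCs, both under 1.5-fold. The log2 ratio of 48h-EpiLCs to ESCs was -0.49 (-0.57 to -0.41) in WT cells and -0.13 (-0.16 to -0.10) in KO cells. It kept these signs without the cells of other types (-0.20 in ESCs and 0.14 in 48h-EpiLCs for KO against WT). At least 97.6% of the cells of each class had a UMI of it, and 38.1% of feeder-like cells.

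Igf2bp2 (chr16:22059009-22163299, minus strand) differed more between the lines than between the stages. It was at 35.3 CPM in WT ESCs (30.7 to 40.3) and 30.1 in WT 48h-EpiLCs (25.9 to 34.7), against 19 in KO ESCs (17.7 to 20.3) and 18.2 in KO 48h-EpiLCs (17.2 to 19.4). The 2 WT intervals overlapped, as did the 2 KO intervals, and each WT interval lay above each KO interval. The log2 ratio of KO to WT was -0.89 (-1.11 to -0.67) in ESCs and -0.72 (-0.95 to -0.49) in 48h-EpiLCs. It was past 1.5-fold at both stages in all 11 alternatives, and with lines taken from clusters and doublets left out it was -1.12 (-1.23 to -1.02) and -0.76 (-0.86 to -0.65). In that setting, with 3853 WT ESCs and 3867 WT 48h-EpiLCs, the log2 ratio between stages in WT cells was -0.41 (-0.50 to -0.31), at 38.7 and 29.2 CPM, and in KO cells -0.04 (-0.16 to 0.08). Thinned to 5000 UMIs, 16.8% of WT ESCs and 8.87% of KO ESCs had a UMI, and 14.2% of WT and 9.16% of KO 48h-EpiLCs (36.6%, 23.3%, 38.9% and 28.4% before thinning). Feeder-like cells, at 32.7 CPM, also had the transcript.

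Igf2bp3 (chr6:49085223-49214957, minus strand) was at 53.3 CPM in WT ESCs (47.7 to 59.4), 43.6 in KO ESCs (41.7 to 45.6), 73.2 in WT 48h-EpiLCs (66.6 to 80.2) and 60.7 in KO 48h-EpiLCs (58.7 to 62.7). The order was that of Lin28a, with overlapping intervals for KO 48h-EpiLCs and WT ESCs. The log2 ratio between stages was 0.46 (0.25 to 0.67) in WT cells and 0.48 (0.40 to 0.56) in KO cells. The ratio of KO to WT was -0.29 (-0.46 to -0.11) in ESCs and -0.27 (-0.41 to -0.13) in 48h-EpiLCs. The 3 Igf2bp genes therefore differed in pattern: Igf2bp1 was lower and Igf2bp3 higher in 48h-EpiLCs, and Igf2bp2 was the only 1 past 1.5-fold between the lines.

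**Figure D3:**
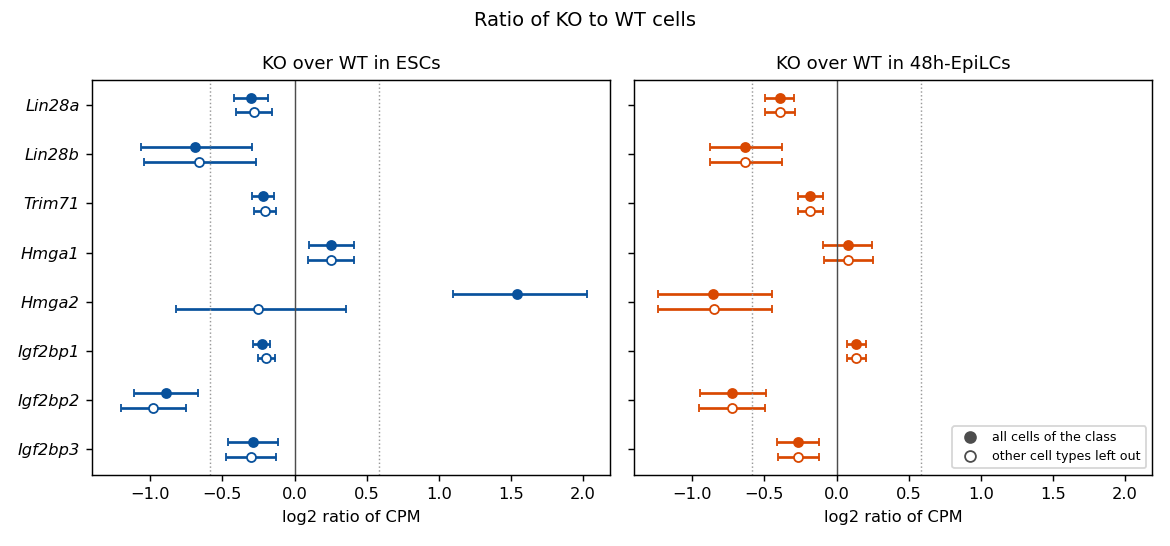
Log2 ratio of CPM in KO over WT cells for the 8 genes in ESCs (left) and 48h-EpiLCs (right); filled points use all cells of the class, open points leave out the cells of other types, bars are exact 95% intervals for counting error and dotted lines mark 1.5-fold. Hmga2 in ESCs moves from 1.54 to -0.25 when the other types are left out, and the other 7 genes stay in place.

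On the log2(CPM + 1) scale, KO over WT in ESCs was past 1.5-fold upward for 1 of the 8 genes (Hmga2), where 12.4% of 9277 genes were, and downward for 2 (Lin28b and Igf2bp2), where 4.98% were. The median over the 8 genes was -0.25, and over all genes 0.125. In 48h-EpiLCs, KO over WT was past 1.5-fold upward for none of the 8 (8.07% of 9385 genes) and downward for 3 (4.3%), Lin28b, Hmga2 and Igf2bp2, with medians of -0.33 and 0.0736. In WT cells, 48h-EpiLCs over ESCs was past 1.5-fold upward for 1, Lin28b (13.3% of 9242 genes), and downward for none (11.4%), with medians of 0.0962 and 0.0276. Hmga2, at 0.55, was also past 1.5-fold upward under 6 of the 11 alternatives, which brought the count to 2. Its lowest value over the 11, 0.06, was with cells thinned to 5000 UMIs. In KO cells, 48h-EpiLCs over ESCs was past 1.5-fold upward for 1, Lin28b (8.55% of 9478 genes), and downward for 1, Hmga2 (10.1%). The medians were -0.0911 over the 8 genes and -0.0213 over all genes. Without the cells of other types the median over the 8 genes in this last comparison was 0.159 and the downward call of Hmga2 was lost. The comparisons share classes (each class enters 2 of the 4), so they are not independent of each other.

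**Figure D4:**
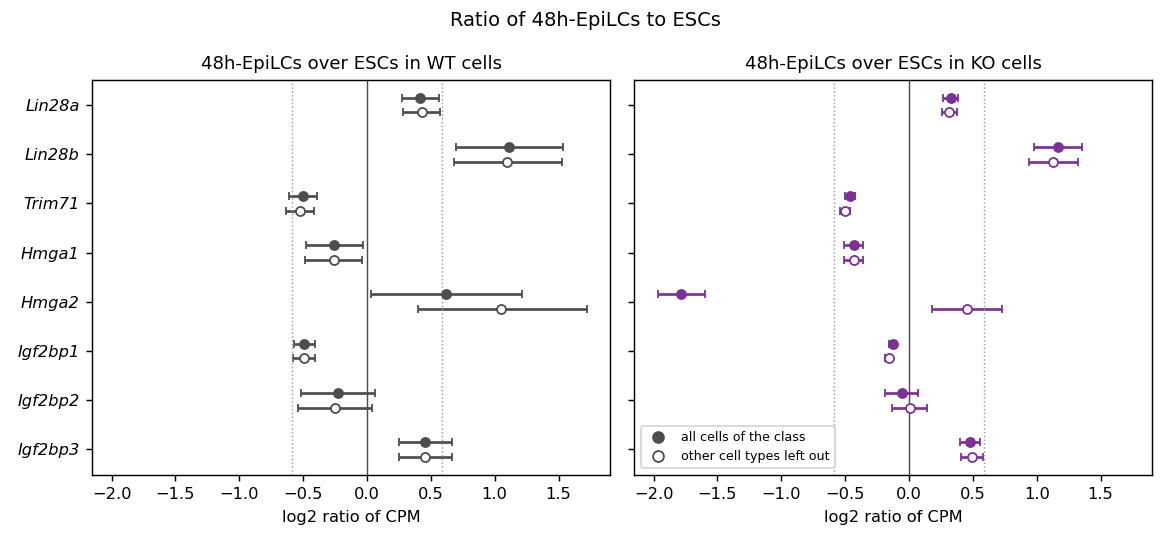
Log2 ratio of CPM in 48h-EpiLCs over ESCs for the 8 genes in WT cells (left) and KO cells (right), with symbols, bars and dotted lines as for the ratio between lines. Lin28b is past 1.5-fold in both lines, at 1.11 and 1.17, and Hmga2 in KO cells moves from -1.78 to 0.45 when the other cell types are left out.

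The enzymes and cofactors that process let-7 or degrade its precursor (10 genes) differed little. In KO against WT ESCs 1 of 10 was lower past 1.5-fold (4.98% of all genes) and none higher (12.4%), with a median log2 ratio of 0.10. In 48h-EpiLCs none was lower (4.3%) or higher (8.07%) past it, with a median of 0.0382. The lower gene was Dis3l2, the exonuclease of the uridylated precursor, at 6.99 CPM in WT ESCs (43 UMIs) and 4.1 in KO ESCs, and at 6.11 and 4.62 in 48h-EpiLCs. Tut4, at 41.9 CPM in WT and 42.5 in KO ESCs, was at 60.3 and 57.6 in 48h-EpiLCs. Ago1, an Argonaute that carries mature microRNAs, was the only 1 of the 10 past 1.5-fold between stages. This was in WT cells, from 15.6 to 25.6 CPM, where 13.3% of all genes were past it upward. Of 3 let-7 host transcripts sought, 2 matched a feature (Mir99ahg and Mir100hg), and neither reached 5 CPM in any comparison. Mir100hg had 65 UMIs in KO ESCs (1.47 CPM) and 4 in WT ESCs (0.65 CPM), a log2 ratio of CPM + 1 of 0.58, which was -0.01 without the other cell types.

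Of 20 other genes known as let-7 targets, KO over WT was past 1.5-fold upward for 2 and downward for 2 in ESCs (median 0.108; 12.4% and 4.98% of all genes), and upward for 1 and downward for 3 in 48h-EpiLCs (median -0.0523; 8.07% and 4.3%). Without the other cell types Igf1r, 1 of the 2 upward in ESCs, was at 0.57 in place of 0.68 and so under 1.5-fold, and Ccnd2 was at -0.54 in place of 0.17. Arid3a, a DNA-binding factor, was at 5.04 CPM in WT ESCs and 12.5 in KO ESCs, and Mycn, a transcription factor of the Myc family, at 133 and 77.1. In 48h-EpiLCs Ccnd2, which encodes cyclin D2, was at 16.7 CPM in WT cells and 9.06 in KO cells. Between stages 5 were past 1.5-fold upward in each line and 3 (WT) or 2 (KO) downward, Fignl2 among them in both at under 5 CPM. Of all genes 13.3% were upward and 11.4% downward in WT cells, and 8.55% and 10.1% in KO cells. Pbx3, a homeobox factor, was at 6.01 and 15.6 CPM in WT cells and 3.83 and 10 in KO cells, while Mycn was at 133 and 52.9 in WT cells.

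**Figure D5:**
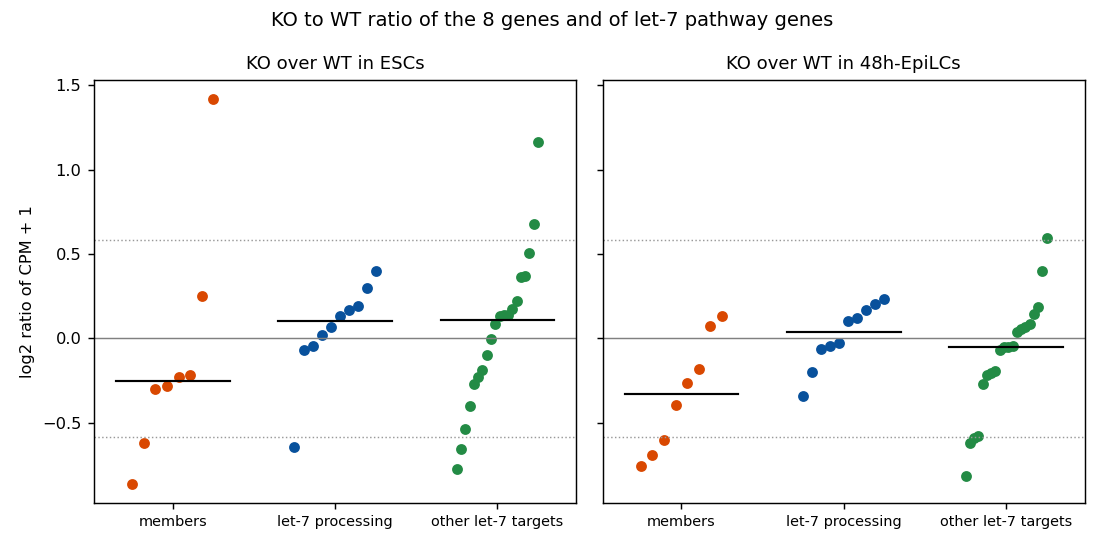
Log2 ratio of CPM + 1 in KO over WT cells, in ESCs (left) and 48h-EpiLCs (right), for the 8 genes, 10 let-7 processing genes and 20 other known let-7 targets; each point is a gene, black bars are medians and dotted lines mark 1.5-fold. The median of the 8 genes is -0.25 and -0.33, and that of the processing genes 0.10 and 0.0382.

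Of 3 mRNAs known to be repressed by Trim71, none was past 1.5-fold between the lines with all cells. Of all genes 12.4% were past it upward and 4.98% downward in ESCs, and 8.07% and 4.3% in 48h-EpiLCs. Without the other cell types Mbnl1, a splicing regulator, was past it in KO over WT ESCs, at a log2 ratio of CPM + 1 of -0.71 (-0.37 with all cells), and Cdkn1a was at -0.33 (0.16 with all cells). Cdkn1a, which encodes the cell cycle inhibitor p21, was at 63.7 CPM in WT ESCs and 105 in WT 48h-EpiLCs, and E2f7, a transcriptional repressor, at 9.59 and 15.9. In KO cells Cdkn1a was at 71.5 and 90.9 CPM and E2f7 at 10.7 and 16.5. Mbnl1 went the other way, from 16.9 to 12.5 CPM in WT cells and from 12.9 to 9.98 in KO cells, and its stage ratio in KO cells was -0.33 with all cells and -0.01 without the other types. The stage ratio of Cdkn1a in KO cells on the log2(CPM + 1) scale was 0.34 with all cells and 0.88 without the other types, so it too turned on them. Among 5 RNAs known to be bound by IGF2BP proteins, Cd44 and Igf2 were past 1.5-fold upward in KO ESCs, as were 12.4% of all genes. Igf2 was at 4.19 CPM against 0.487 (3 UMIs) in WT ESCs, under the minimum used for all genes. Their log2 ratios on that scale were 1.68 and 1.80 with all cells, and -0.35 and 0.57 without the other types. H19, a maternally expressed non-coding RNA, was at 41.8 CPM in WT ESCs and 19.8 in WT 48h-EpiLCs, and at 52.7 and 16.3 in KO cells. Its stage ratio on the log2(CPM + 1) scale was -1.04 in WT and -1.63 in KO cells, and -0.57 (under 1.5-fold) and -1.32 without the other types.

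The 8 genes also differed among the other cell types of the ESC library. Lin28a was at 130 CPM in endoderm-like cells (117 to 143), above KO ESCs and at the upper limit of WT ESCs, and at 69.6 in 2-cell-like cells (52 to 91.3). Trim71 was at 179 CPM in endoderm-like cells (164 to 195), below both ESC classes. Hmga2 was at 32.3 CPM in endoderm-like cells (26.2 to 39.5), above WT ESCs, and Igf2bp3 at 16.1 CPM in 2-cell-like cells (8.3 to 28.1), below both ESC classes. In feeder-like cells Lin28a was at 12.8 CPM, Lin28b at 0.734 with 2 UMIs in all, and Trim71 at 36, while Hmga1 was at 97.6, above all 4 classes. These levels describe clusters of 1 library. The clusters were formed from the counts of the same cells, with the 8 genes left out of the variable genes.

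Among clusters of 1 line and stage the spread of Lin28a was wider in KO ESCs, from 45.4 to 159 CPM over 7 clusters, than in WT ESCs, from 80.4 to 124 over 4. The lowest and the highest were small clusters of low depth. They held 107 cells with a median of 3053 UMIs and 115 cells with a median of 4875. Their Y-linked levels were 50.2 and 55.7 CPM, against 127 to 134 in the other KO ESC clusters (before doublets were left out). Whether these small clusters mix the lines was not tested. A cluster of 654 cells with a median of 11153.5 UMIs was at 46.3 CPM of Lin28a (41.7 to 51.4), close to the lowest. Lin28b ranged from 13.8 to 30.2 CPM over the 5 clusters of WT 48h-EpiLCs and from 6.97 to 19.5 over the 8 of KO 48h-EpiLCs. Igf2bp1 varied least among the clusters of WT cells, from 391 to 447 CPM in WT ESCs and from 297 to 341 in WT 48h-EpiLCs. The lowest Igf2bp1 cluster of WT cells at each stage was also the lowest for Lin28b, which was at 5.74 CPM in that of WT ESCs. Both clusters had a high level of Y-linked UMIs. Before doublets were left out it was 61.6 CPM in WT ESCs and 54.2 in WT 48h-EpiLCs. The other WT clusters had at most 8.23 and 9.48. With doublets kept, the clusters with high Y-linked levels had medians of 21649 and 30287 UMIs per cell, against at most 12278 and 17099 in the other WT clusters. Leaving out doublets took them from 689 to 149 cells and from 595 to 254 cells. The remaining cells stayed in the WT class where lines were taken from clusters and doublets left out. Whether these clusters mix the lines was not tested. Without them the lowest values in WT ESCs and WT 48h-EpiLCs were 394 and 311 CPM for Igf2bp1 and 9.72 and 15.8 for Lin28b.

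By distance between log2(CPM + 1) profiles over the 4 classes, each centred on its mean, the genes most like Lin28a among 9383 were Mecr (14.3, 11.3, 19.3 and 14.4 CPM in WT ESCs, KO ESCs, WT and KO 48h-EpiLCs) and Bbs4, with distances of 0.0129 and 0.0366. Those most like Lin28b were A930024E05Rik and Magohb (0.0807 and 0.104), and those most like Trim71 were Mga and Pip5k1a (0.0412 and 0.0415). A distance under 0.5 was found for 2288 genes around Lin28a, 2187 around Trim71 and 3552 around Igf2bp1, but for 126 around Lin28b, 414 around Igf2bp2 and 3 around Hmga2, whose profile includes the KO ESC level of 19.9 CPM that was mostly from feeder-like cells. The nearest to Igf2bp2 were Ikbip and Lta4h (0.104 and 0.105), the latter at 35.7 CPM in WT ESCs, 18 in KO ESCs, 31.5 in WT and 17.8 in KO 48h-EpiLCs. With 4 classes, these distances rest on 4 values per gene.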

How the data were processed

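The authors deposited UMI counts for each gene and cell barcode, made from Chromium Single Cell 3′ v2 libraries with Cell Ranger (version 3.0.2) on an mm10 reference with the tdTomato coding sequence added. The barcodes were those called as cells. No correction for free RNA and no use of strand is stated. Annotated genes on the opposite strand overlap Lin28a, Trim71, Hmga1, Hmga2, Igf2bp1 and Igf2bp3.

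UMIs were summed per line and stage and divided by the class total (CPM). CPM carries exact Poisson 95% intervals, ratios carry 95% intervals from the exact binomial share of the first class in both counts, and shares of cells carry Clopper-Pearson intervals. PCR duplicates are removed by UMIs, and the intervals cover counting error only. Medians and counts past 1.5-fold used log2(CPM + 1) over genes with a mean of at least 5 CPM, except in the gene lists, where all matched genes were used. A ratio on this scale understates the change of low genes. Cells were clustered per library (2000 variable genes, 30 principal components, 15 neighbours, Leiden resolution 1.0, leidenalg 0.10.2), and clusters with at least 3 markers of a list at 20 CPM and 4-fold above the other cells were set apart. Doublets were kept in the main values and scored on simulated pairs. Alternative TMM factors came from edgeR 4.0.16. Scripts ran in Python 3.11.15 and the ratios were tested on simulated counts.

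Gene and 3′ UTR positions were those of GENCODE M21 (GRCm38, equal to mm10), and microRNA sequences from RefSeq. The named genes were the 8 members, the line markers, Hmga1b, gene lists of the let-7 pathway and of Trim71 and IGF2BP targets (the 2 largest ratios per direction, of which 1 gene is not reported here) and the 2 genes most like each member. Members and lists were chosen with earlier results of these data known.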

Additional observations from a re-analysis of the deposited data

Results flagged for a closer look

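Hmga2 and Igf2bp1 had log2 ratios of KO to WT cells of opposite sign at the 2 stages, with intervals that did not include 0. For Hmga2 the ratio was 1.54 in ESCs and -0.85 in 48h-EpiLCs, and for Igf2bp1 it was -0.23 in ESCs and 0.14 in 48h-EpiLCs. With 1 library per stage the difference between stages was not tested. For Hmga2 the ratio in ESCs was -0.25 once feeder-like, endoderm-like, 2-cell-like and unnamed cells were left out, so that both stages then had the same sign. For Igf2bp1 the values without those cells were -0.20 and 0.14.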

How the results depend on the processing

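Over the 8 genes, 4 comparisons and 11 alternatives, 344 of 352 log2 ratios kept the sign of the main value and 333 kept their side of 1.5-fold; 13 lost and 6 gained it. The values that changed sign were all of Hmga2 or Igf2bp2, on the log2(CPM + 1) scale. For Hmga2, KO over WT in ESCs was -0.35 with lines taken from clusters, -0.21 without the other cell types and -0.37 with lines from clusters and no doublets. Its ratio of 48h-EpiLCs over ESCs in KO cells was 0.24, 0.38 and 0.24 in the same order. Under these 3 settings the median over the 8 genes for 48h-EpiLCs over ESCs in KO cells was 0.107, 0.159 and 0.1002, and 1 gene was past 1.5-fold in place of 2. Igf2bp2 in that comparison, at -0.05, changed sign under 2 settings. The number past 1.5-fold in KO over WT ESCs was 1 with lines from clusters. In WT cells it was 2 between stages, with Hmga2 added, when doublets or other cell types were left out, with a pseudocount of 0.1 CPM, at most 5% mitochondrial UMIs, the mean of single-cell CPM, or lines from clusters and no doublets. That last setting was chosen after seeing the data. TMM scaling moved the median of all genes by -0.0958 in KO over WT ESCs, by less in the other comparisons, and changed the sign of no member. No paired analysis was possible because each stage had 1 library, and for the same reason no library could be left out. Lin28b and Hmga2 in WT cells rest on 42 to 155 UMIs, which limits their precision most.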
